A study of Mus musculus with 18 samples.

Results

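The genes described here are a set of 8 that mark the 2C-like state of mouse embryonic stem cells (mESCs): Zscan4c, Zscan4d, Zscan4f, Tcstv3, Zfp352, Usp17lc, Tmem92 and Gm4340. They were taken by symbol, and 7 of the 8 were among the 20703 genes of the expression table; Tcstv3 was not found there by symbol or by Ensembl identifier and was not analysed here. The list was chosen by symbol with the KO against WT values of these same libraries already in view, so the values of these genes are given as a description, without a test.

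RNA-seq was carried out in E14 mESCs, a line of mouse embryonic stem cells, that were WT for Nsd1 or carried a homozygous CRISPR-Cas9 deletion of Nsd1 exon 5. Nsd1 is a histone methyltransferase that places H3K36me2. The KO lines, KO-1 and KO-2, are each 1 clone and were made in E14 cells with Nsd1-3×Flag alleles, and whether the WT libraries came from tagged or untagged cells is not given in the labels. Cells were grown with LIF on mitotically inactivated mouse embryonic fibroblasts (MEFs) or on gelatin. Which of these was used for the day 0 libraries is not given in the labels. Cells were collected before (day 0) or at day 2 and day 4 after LIF and MEFs were taken away. This gave 9 groups of 2 biological replicates each and 18 libraries. The recovered gene counts summed to 9309874 in the shallowest library and 23921193 in the deepest.

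In cultures of mESCs, rare cells pass through a transient state whose transcripts resemble those of the embryo after its first division, when its own genome is switched on. The homeobox factor Dux, with Dppa2 and Dppa4 upstream of it, is known to switch on this programme, which includes the Zscan4 cluster, the Usp17l deubiquitinase genes, the Eif1ad-like and Pramel families and MERVL repeats. Zscan4 proteins are known for their role in telomere maintenance in mESCs. Because few cells are in this state at a time, the transcripts are scarce in bulk RNA, and fewer cells in the state cannot be told apart from less RNA in each such cell.

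The promoters of the genes are printed here because members of the set moved together, and because the 3 Zscan4 genes share almost the same sequence, which bears on how their reads could be told apart. RefSeq windows were present for 6 of the 7 genes, all but Tmem92. The 150 bases directly before the annotated start are shown 5′ to 3′ on the strand of the gene (GRCm38.p6), with every match to TATAA in capitals.
Zscan4c, chr7:11005595-11005744, plus strand: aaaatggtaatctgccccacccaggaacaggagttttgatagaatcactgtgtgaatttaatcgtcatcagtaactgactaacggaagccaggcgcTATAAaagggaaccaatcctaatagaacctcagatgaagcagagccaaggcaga
Zscan4d, chr7:11166149-11166298, minus strand: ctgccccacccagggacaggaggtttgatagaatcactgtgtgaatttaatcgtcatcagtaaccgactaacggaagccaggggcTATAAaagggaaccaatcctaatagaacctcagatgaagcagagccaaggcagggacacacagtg
Zscan4f, chr7:11397765-11397914, plus strand: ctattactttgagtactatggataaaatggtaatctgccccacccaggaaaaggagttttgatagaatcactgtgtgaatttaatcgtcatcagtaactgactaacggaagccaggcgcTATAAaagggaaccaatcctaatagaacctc
Usp17lc, chr7:103416546-103416695, plus strand: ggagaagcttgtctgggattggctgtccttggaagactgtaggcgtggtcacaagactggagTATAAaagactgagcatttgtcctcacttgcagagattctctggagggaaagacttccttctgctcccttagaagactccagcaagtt
Gm4340, chr10:104193892-104194041, plus strand: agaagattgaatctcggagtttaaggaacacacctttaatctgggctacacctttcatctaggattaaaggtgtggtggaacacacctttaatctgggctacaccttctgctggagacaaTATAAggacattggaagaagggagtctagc
Zfp352, chr4:90218670-90218819, plus strand: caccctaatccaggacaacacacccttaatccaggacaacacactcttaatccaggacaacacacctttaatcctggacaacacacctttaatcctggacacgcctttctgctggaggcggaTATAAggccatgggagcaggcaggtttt

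All 6 windows held TATAA on the strand of the gene, whereas 9.99% of the 32851 RefSeq windows of this length did so and 14.2% held it on either strand. Each of the 6 contained 1 to 3 CG dinucleotides, and 48.7% of all windows also held at most 3. The 3 Zscan4 windows also held CCAAT, the letters bound by the factor NF-Y, on the strand of the gene, as did 13.3% of all windows, and Gm4340 and Usp17lc held it on the other strand. Over the best ungapped alignment of the full RefSeq windows, which run from before to after the start, Zscan4c and Zscan4f were identical at 275 of 277 bases and Zscan4c and Zscan4d at 281 of 289. These matches describe the letters of the windows and were not compared with any binding data.

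The likeness extends into the transcripts. Of all 150-base windows of the GENCODE M21 transcripts, 77.4% of those of Zscan4f, 61.0% of those of Zscan4c and 13.0% of those of Zscan4d were also found, letter for letter, in another gene, mostly a Zscan4 paralog or pseudogene. The share was 90.1% for Gm4340, which shares sequence with 6 other predicted genes, and 29.4% for Usp17lc. Zfp352 and Tmem92 shared no such window. How reads were divided among the near-identical Zscan4 genes and among the copies of Gm4340 is therefore uncertain, and their values are better read for the family than for the single gene.

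The deletion was visible in the targeted gene. Nsd1 had normalized counts, that is counts divided by the size factor of the library, of 3517 ± 202 in WT (SD, n = 2) and 718 ± 85.4 in KO (SD, n = 4) at day 0. It was 3.25-fold lower in KO at day 2 and 2.77-fold lower at day 4, and no KO library of any day reached a WT library of that day.

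In WT mESCs the 2C-like genes were expressed at day 0, stood at 89.6% (Usp17lc) to 339% (Gm4340) of that level at day 2 and had nearly disappeared by day 4. In Nsd1-KO mESCs all but Zfp352, which was near the floor throughout, were lower than in WT at day 0. The Zscan4 genes and Tmem92 were lower still in KO at day 2, at 36.1% to 43.0% of their day 0 mean. Usp17lc and Gm4340 were at 54.3% and 71.0%, with KO libraries that overlapped between the days. At day 4 both genotypes were near the floor of detection. The summed normalized count of the 7 genes was 406 and 455 in the WT libraries of day 0, 138 and 169 in KO-1, and 162 and 185 in KO-2. At day 2 the sum was 570 and 546 in WT, 79.0 and 54.9 in KO-1, and 62.4 and 73.8 in KO-2. At day 4 it was 24.2 and 27.8 in WT, 11.3 and 16.7 in KO-1, and 23.8 and 23.7 in KO-2. In the sum the KO libraries thus stood below both WT libraries at every day, and the ratio of WT to KO means came to 2.63 before withdrawal, 8.27 at day 2 and 1.38 at day 4. At day 4 the WT libraries and those of KO-2 were almost level.

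**Figure D1:**
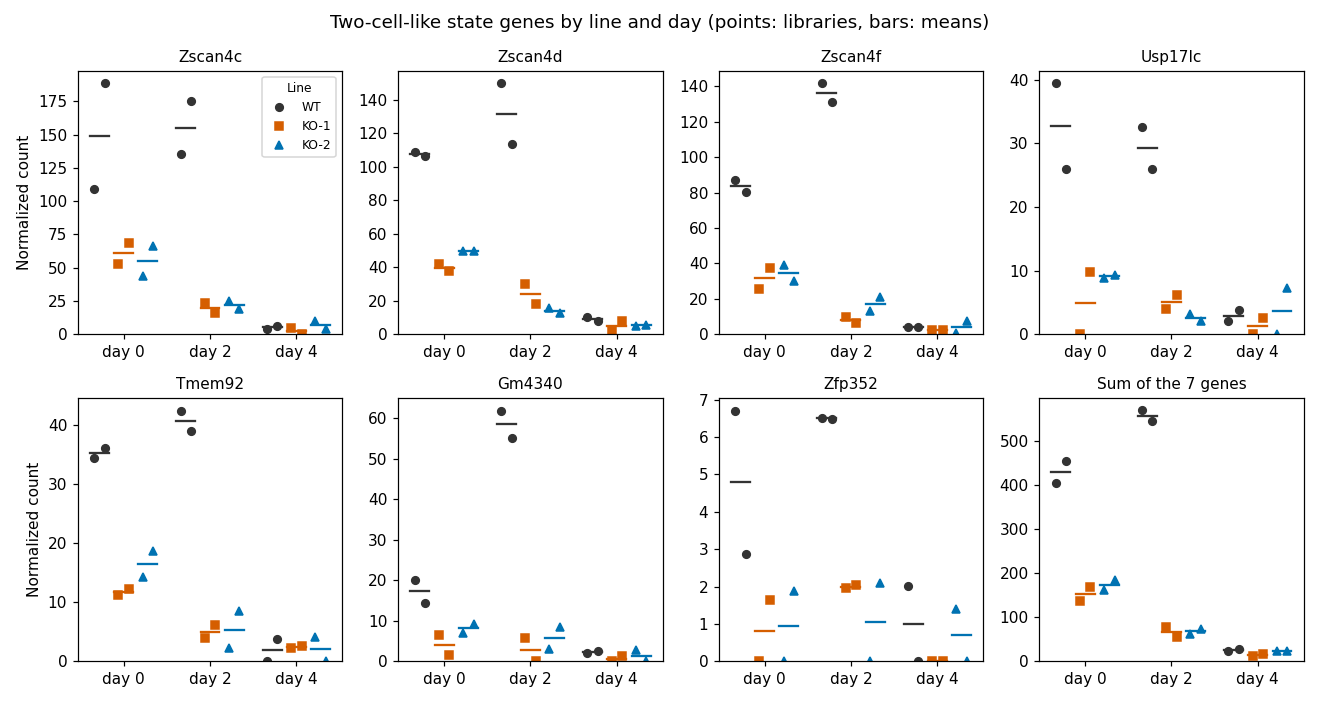
Normalized counts (y axis, linear, from 0) of the 7 genes and their sum at day 0, 2 and 4 (x axis) in WT, KO-1 and KO-2; points are libraries and bars are means of 2. At day 0 and day 2 every KO point lies below both WT points of the same gene, as for 24.3% and 31.4% of all genes, and at day 4 the sum is at most 27.8 in any library. For Zfp352 at day 0, replicate 2 of WT, KO-1 and KO-2 each had 2 counts, and these points differ only through the size factors.

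The time courses differed between the genotypes. In WT the sum at day 2 was 130% of that at day 0 and at day 4 it was 6.03%. In KO-1 it was 43.5% of its own day 0 at day 2 and 9.08% at day 4, and in KO-2 39.2% and 13.7%. These shares are set against the mean of 2 libraries each.

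Divided by the length of the longest transcript, the Zscan4 genes were the most abundant of the set. In WT at day 0, normalized counts per kb were 65.4 ± 24.7 for Zscan4c, 47.4 ± 0.799 for Zscan4d and 45.9 ± 2.57 for Zscan4f (SD, n = 2 each), levels that do not differ beyond their spread. Tmem92 followed at 17.2 ± 0.547, then Gm4340 at 13.7 ± 3.23 and Usp17lc at 13.6 ± 3.98. Usp17lc did not differ beyond its spread from Gm4340 or from Tmem92. Zfp352 was lowest at 2.11 ± 1.19 per kb. At day 2 in WT, Zscan4f stood at 74.6 ± 4.05 per kb and Gm4340, at 46.5 ± 3.83, had moved above Tmem92, at 19.9 ± 1.20.

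The Zscan4 genes encode proteins with a SCAN domain and zinc fingers. Zscan4c (ENSMUSG00000054272) had normalized counts of 109 and 188 in WT at day 0, 53.0 and 68.8 in KO-1, and 43.5 and 66.4 in KO-2. At day 2 it was at 135 and 175 in WT, 23.4 and 16.3 in KO-1, and 25.0 and 18.97 in KO-2. At day 4 it was at 4.03 and 6.31 in WT, 4.51 and 0.00 in KO-1, and 9.80 and 3.65 in KO-2. The genotypes did not overlap at day 0 and day 2 and overlapped at day 4, and the ratio of WT to KO means was 2.57 at day 0 and 7.42 at day 2.

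Zscan4d (ENSMUSG00000090714), among the Zscan4 genes of the set the one with the largest share of windows of its own, was at 109 and 106 in WT at day 0, 41.8 and 37.7 in KO-1, and 49.7 and 49.6 in KO-2. At day 2 its normalized counts were 150 and 113 in WT, 30.2 and 18.3 in KO-1, and 15.6 and 12.6 in KO-2. At day 4 they were 10.1 and 7.58 in WT, 2.26 and 7.69 in KO-1, and 4.90 and 5.47 in KO-2. Zscan4d was 2.41-fold lower in KO at day 0 and 6.86-fold lower at day 2, and 1 KO-1 library fell between the WT libraries at day 4.

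Zscan4f (ENSMUSG00000070828) was at 87.2 and 80.6 in WT at day 0, 25.7 and 37.7 in KO-1, and 39.0 and 29.9 in KO-2. At day 2 the WT libraries rose to 142 and 131, whereas KO-1 was at 9.75 and 6.10 and KO-2 at 13.3 and 21.1. At day 4 Zscan4f was at 4.03 and 3.79 in WT, 2.26 and 2.56 in KO-1, and 0.700 and 7.30 in KO-2. The ratio of WT to KO means went from 2.54 at day 0 to 10.9 at day 2, and the genotypes overlapped at day 4.

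Usp17lc (ENSMUSG00000058976), a gene of the Usp17-like deubiquitinase family, was at 39.4 and 25.9 in WT at day 0, 0.00 and 9.82 in KO-1, and 8.87 and 9.35 in KO-2. At day 2 it was at 32.6 and 25.9 in WT, 3.90 and 6.10 in KO-1, and 3.12 and 2.11 in KO-2. At day 4 it was at 2.01 and 3.79 in WT, 0.00 and 2.56 in KO-1, and 0.00 and 7.30 in KO-2. Its WT to KO ratio was 4.66 at day 0, where 1 KO-1 library had no count, and 7.69 at day 2.

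Tmem92 (ENSMUSG00000075610) encodes a transmembrane protein, and its transcript shares no window with another gene. It was at 34.4 and 36.0 in WT at day 0, 11.2 and 12.3 in KO-1, and 14.2 and 18.7 in KO-2. Tmem92 stood at 42.4 and 38.9 in WT at day 2, 3.90 and 6.10 in KO-1, and 2.34 and 8.43 in KO-2. At day 4 it was at 0.00 and 3.79 in WT, 2.26 and 2.56 in KO-1, and 4.20 and 0.00 in KO-2. Tmem92 was 2.49-fold lower in KO at day 0 and 7.83-fold lower at day 2, and the genotypes overlapped at day 4.

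Gm4340 (ENSMUSG00000090854), a predicted gene of a multicopy family, rose most in WT: it was at 20.1 and 14.4 at day 0 and at 61.9 and 55.1 at day 2, which is 339% of its day 0 mean. KO-1 was at 6.42 and 1.64 and KO-2 at 7.10 and 9.35 at day 0. At day 2 KO-1 was at 5.85 and 0.00 and KO-2 at 3.12 and 8.43. At day 4 Gm4340 was at 2.01 and 2.53 in WT, 0.00 and 1.28 in KO-1, and 2.80 and 0.00 in KO-2. The ratio of WT to KO means was 2.82 at day 0 and 13.5 at day 2, the largest of the 6 genes for which a ratio was taken. The KO libraries of day 2 held only 6, 0, 4 and 8 counts of it, so this rank is uncertain.

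Zfp352 (ENSMUSG00000070902), which encodes a zinc finger protein, was close to the floor throughout. Its counts were 8 and 2 in WT at day 0, 0 and 2 in KO-1, and 0 and 2 in KO-2. At day 2 they were 4 and 4 in WT, 2 and 2 in KO-1, and 0 and 2 in KO-2, and at day 4 no library had more than 2. No KO library had more than 3 counts at any day, the level taken here as the floor of a library, and no fold is given for this gene.

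At day 2 the WT libraries, with 9309874 and 9356867 counts in total, were the shallowest of all and held 350 and 337 counts of the 7 genes, against 81, 54, 80 and 70 in the deeper KO libraries. Of the 126 values of the 7 genes, 16 were at 0, and 11 of these were at day 4. Of the values above 0, 83.6% were even numbers, and in each library 73.8% to 78.9% of all counts from 1 to 10 were even. The cause of this excess of even counts was not tested.

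On the log2 scale the size of the difference depended on the transformation. The deposited values are variance stabilized (VST), which compresses low counts: Zscan4c at day 2 differed between KO and WT by −0.61 on the VST scale and by −2.86 ± 0.42 (SE) in limma-voom on the recovered counts. The median log2 fold change of the 7 genes on VST values was −0.27 before withdrawal, −0.46 at day 2 and −0.04 at day 4. By limma-voom it was −1.32, −2.89 and −0.73, beside medians over all 20703 genes of −0.03, −0.14 and 0.00. The voom values of day 2 are to be read against the median of −0.14 over all genes. The calls below are given for both scales, for genes with adjusted p below 0.01 whose log2 fold change exceeded 0.58 in size.

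Other genes of the programme were described with a list of 118 further symbols of 2C-like genes, of which 60 matched 47 genes of the table. This list, like those of regulators and markers below, was chosen with earlier results of these data known. Its calls and p-values thus describe these libraries and are not independent support. The list also holds paralogs of the 7 genes, with which reads may be shared. At day 0, 27 of the 47 had all 4 KO libraries below both WT libraries, as had 24.3% of all genes. The count rose to 32 of the 47 at day 2, beside 31.4% of all genes, and at day 4 it was 3 of the 47, beside 25.9%. All 4 KO libraries stood above both WT libraries for 7, 7 and 8 of the 47 at day 0, 2 and 4. Over all 20703 genes this held for 4780, 5416 and 4956. The median voom log2 fold change of the 47 genes was −1.08 before withdrawal, −2.82 at day 2 and 0.05 at day 4.

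By limma-voom with Benjamini-Hochberg adjustment over all genes, 9 of the 47 were called lower in KO at day 0 (6.86% of all genes), 28 at day 2 (13.6%) and 2 at day 4 (13.0%). The calls of day 0 leaned on single libraries, since only 1 of the 47 was called lower without WT replicate 1 of that day and 5 without KO-2 replicate 1. Leaving out any one library, between 23 and 29 were called lower at day 2. Called higher were 5 at day 0 (6.43% of all genes), 7 at day 2 (10.3%) and 6 at day 4 (10.9%). On VST values, at the same thresholds, the calls for lower genes were 0 at day 0 (0.879% of all genes), 1 at day 2 (2.37%) and 0 at day 4 (3.91%), while 23, 32 and 4 of the 47 were lower at an unadjusted p under 0.05, beside 19.7%, 27.9% and 22.9% of all genes. At day 4 the 4 of 47 were thus a smaller share than that of all genes, on a day when 12 to 26 of the 47 had no count in a library. Higher at an unadjusted p under 0.05 were 6, 7 and 7 of the 47 on the successive days, beside 4065, 5053 and 4410 of all 20703 genes. The VST calls for higher genes were 4 at day 0 (1.73%), 3 at day 2 (4.01%) and 3 at day 4 (3.67%).

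**Figure D2:**
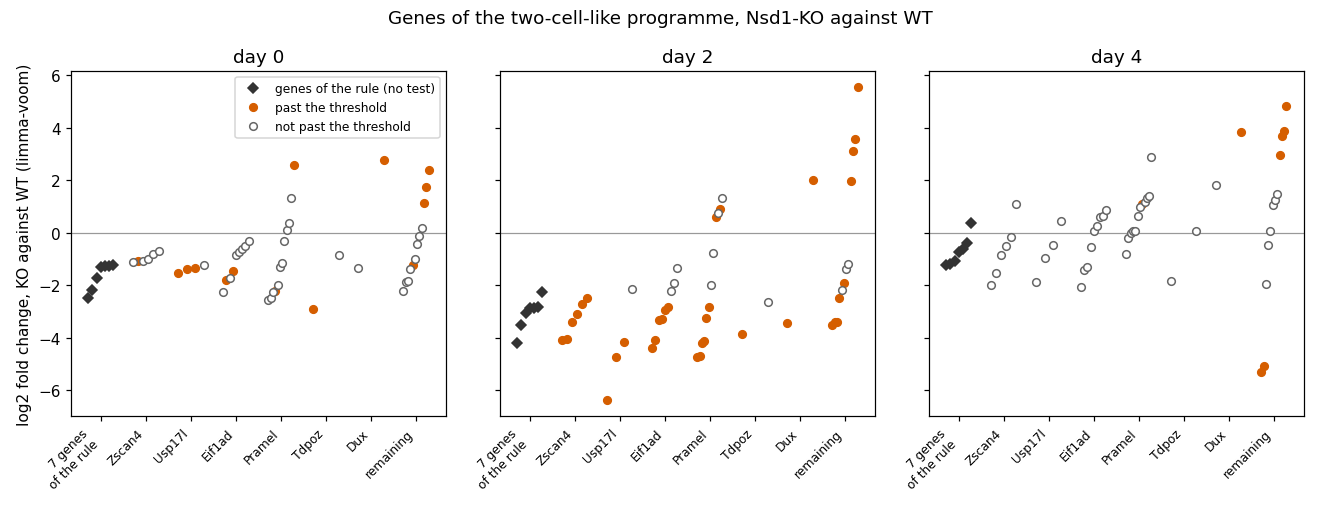
Log2 fold change of KO against WT by limma-voom (y axis) at day 0, 2 and 4 for the 7 genes of the rule and for the 47 other genes by family (x axis); filled circles passed the threshold, open circles did not, and diamonds are genes without a test. At day 2 all 6 other Zscan4 genes are filled and below 0, and at day 4 no Zscan4, Usp17l or Eif1ad gene is filled.

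The Zscan4, Usp17l and Eif1ad families are described first. All 6 other genes and pseudogenes of the Zscan4 cluster were called lower by limma-voom at day 2, whereas 1 was before withdrawal and 0 at day 4, and their summed normalized count was 511 ± 69.7 in WT (SD, n = 2) and 61.2 ± 10.2 in KO (SD, n = 4) at day 2. Of the 4 other Usp17l genes, 3 were called lower at day 0 and 3 at day 2, with a summed normalized count at day 2 of 293 ± 8.002 in WT and 14.5 ± 7.30 in KO. Of the 9 Eif1ad-like genes, which resemble a translation initiation factor, 2 were called lower at day 0 and 6 at day 2. Reads may be shared within each of these families, as for the genes above.

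Usp17le, the only gene of the list called lower on VST values, shows the pattern well. Its normalized counts were 78.0 and 77.7 in WT at day 0, 16.1 and 37.7 in KO-1, and 26.6 and 24.3 in KO-2. At day 2 they were 155 and 154 in WT, 5.85 and 4.07 in KO-1, and 10.9 and 15.8 in KO-2. By day 4 no library exceeded 5.05. At day 2 it differed by −0.74 ± 0.06 (SE) on the VST scale, with an adjusted p of 1.86e-09 by limma, and the ratio of means was 16.9.

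Not every gene listed under the programme was lower. The Pramel family was split, with 6 of its 12 genes called lower and 2, Pramel12 and Pramel13, called higher at day 2. Duxf3, the symbol of Dux itself in the table, was nearly undetected, with 8 and 3 counts in WT at day 2, 4, 0, 0 and 0 in KO, and at most 4 in any library of the other days. It was called lower at day 2 by limma-voom (adjusted p = 0.00510) and not on VST values, where its adjusted p was 0.00781 and its log2 difference −0.19, below the limit on size.

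Duxbl1, which encodes a Dux-like double homeodomain protein, went the other way. It was at 73.8 and 48.9 normalized counts in WT at day 0, against 440 and 451 in KO-1 and 450 and 405 in KO-2. At day 2 it was at 140 and 212 in WT, 665 and 703 in KO-1, and 691 and 706 in KO-2. At day 4 WT was at 24.2 and 17.7, KO-1 at 283 and 294, and KO-2 at 302 and 295. Duxbl1 was called higher in KO at all 3 days on both scales, with VST log2 fold changes of 0.97, 0.91 and 0.96 (adjusted p at most 6.06e-11, limma).

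Usp26, an X-linked deubiquitinase gene, and Calcoco2, an autophagy receptor gene, were also called higher in KO at every day, with ratios of KO to WT means at day 2 of 8.36 and 3.99. Obox6, an oocyte-type homeobox gene, was at 34.4 and 40.3 in WT at day 0 against 193, 206, 214 and 165 in KO, was called higher at day 0 on VST values (adjusted p = 1.14e-08, limma), and had no count in any WT library at day 2 and day 4. These genes were more abundant in KO at the days on which the Zscan4 cluster was less abundant. With them included, the summed normalized count of the 47 genes was higher in KO at every day. It was 5163 against 4273 in WT at day 0, 4005 against 2822 at day 2 and 2370 against 1037 at day 4.

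The levels of known activators and repressors were compared next. Of 10 activators, 0 were called on VST values at day 0, 3 were called higher at day 2 (4.01% of all genes) and the same 3, Dppa2, Dppa4 and Nr5a2, at day 4 (3.67%). By limma-voom Nfyc was called higher and Tbx3 lower at day 0, and 5 were called higher at day 2 (10.3% of all genes). At an unadjusted p under 0.05 on VST values, 3 were lower and 3 higher at day 0, beside 19.7% and 19.6% of all genes. At day 2, 0 were lower and 7 higher, and at day 4, 2 were lower and 4 higher. Over all 20703 genes, 5770 were lower and 5053 higher at day 2, and 4732 and 4410 at day 4.

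Dppa2 and Dppa4 encode DNA-binding partners of the SAP family. Dppa2 was at 1684 and 1646 in WT at day 0 and fell to 991 and 1099 at day 2 and 290 and 267 at day 4. In KO it stayed between 1391 and 2108 in all 8 libraries of day 2 and day 4. Dppa4 was 2.02-fold higher in KO at day 2 and 5.18-fold higher at day 4, while at day 0 the genotypes overlapped. Thus the KO cells of day 2 held more Dppa2 and Dppa4 transcript than WT and less of the Zscan4, Usp17l and Eif1ad families.

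Nr5a2, a nuclear receptor active at genome activation, was at 1463 and 1470 in WT at day 0 and at 48.9 and 94.0 at day 2, whereas KO-1 was at 936 and 889 and KO-2 at 797 and 756 at day 2. On the VST scale Nr5a2 was higher by 1.46 ± 0.09 (SE) at day 2, with an adjusted p of 1.87e-10 by limma. Tbx3, a T-box factor linked to the state, was 1.55-fold lower in KO at day 0, 3.08-fold higher at day 2 and 1.97-fold lower at day 4, without passing the threshold on VST values. By limma-voom it was called lower, higher and lower (adjusted p at most 1.15e-05).

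**Figure D3:**
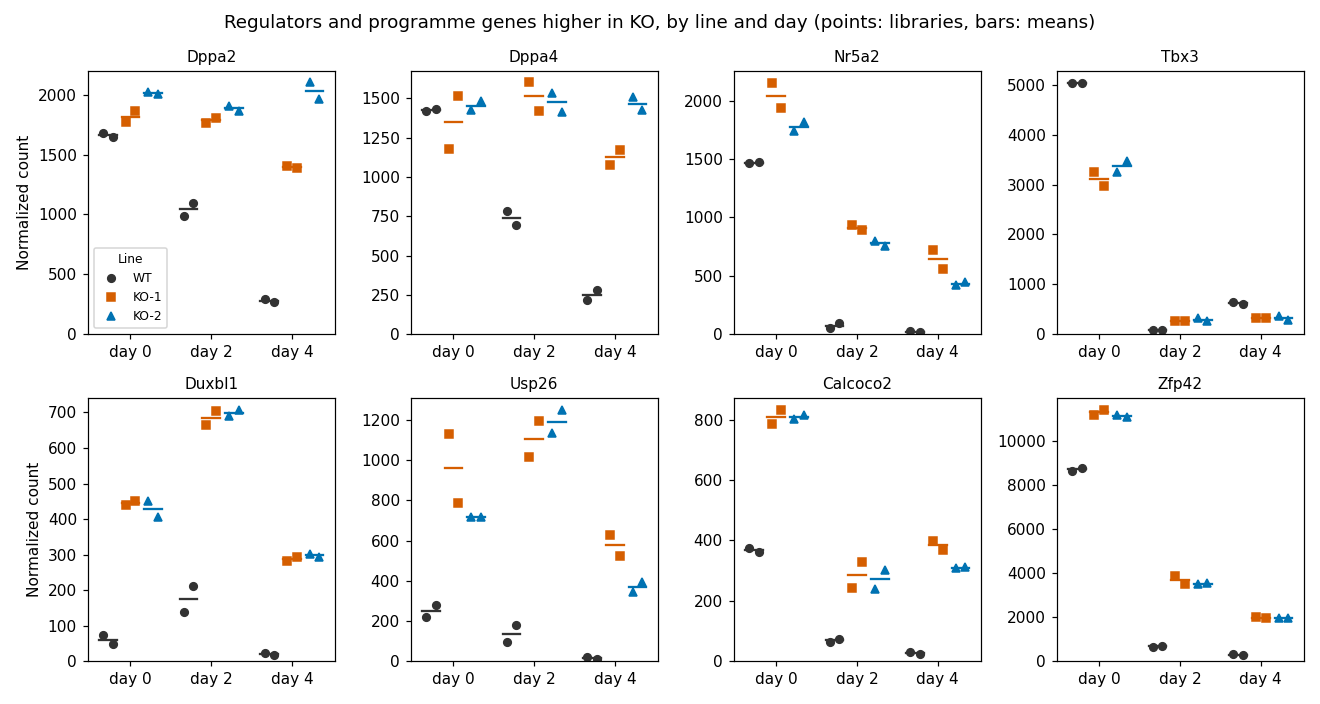
Normalized counts (y axis, linear, from 0) of 4 activators, 3 genes of the programme that were higher in KO, and the repressor Zfp42 at day 0, 2 and 4 (x axis); points are libraries and bars are means of 2. Dppa2 and Dppa4 fall in WT and stay high in both KO lines, and Duxbl1, Usp26 and Calcoco2 are higher in every KO library at every day.

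Of 39 repressors of the state, such as chromatin silencing factors, 0 were called on VST values at day 0, where 7 were lower and 10 higher at an unadjusted p under 0.05 (19.7% and 19.6% of all genes) and limma-voom called 2. At day 2, 2 were called higher, a share near the 4.01% of all genes, Zfp42 (Rex1) and the corepressor gene Rcor2, and at day 4 Lin28a, Rif1 and Usp7 were higher with them (5 of 39, beside 3.67% of all genes) and Myc was lower (1 of 39, beside 3.91%). At an unadjusted p under 0.05 on VST values, 11 of the 39 were lower and 20 higher at day 2, and 7 lower and 18 higher at day 4. Over all 20703 genes, 5770 were lower and 5053 higher at day 2, and 4732 and 4410 at day 4. Zfp42 was 5.21-fold higher in KO at day 2 and 6.33-fold at day 4. The most abundant repressor, Ncl (nucleolin), was not called at any day.

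Whether the KO effect changed between days was tested with the interaction terms of the fits. On VST values, 0 of the 47 genes of the programme passed for day 4 against day 0 (6.93% of all genes in either direction), where 4 had a more negative and 21 a more positive KO effect at day 4 at an unadjusted p under 0.05, beside 18.4% and 17.7% of all genes. For the same term limma-voom called 4 of the 47, Pramel13, Calcoco2, Usp26 and Chit1, beside 14.9% of all genes. For day 2 against day 0, 1 gene, Usp26, passed (3.19% of all genes). By limma-voom the KO effect was more negative at day 2 for 7 of the 47, Zscan4e, Zscan4-ps1, Zscan4-ps3, Usp17la, Usp17lb, Usp17le and Eif1ad15, beside 3.25% of all genes, and more positive for 2, Pramel12 and Pramel13, beside 4.09%. Zscan4e gave a difference of −1.62 ± 0.36 (SE; adjusted p = 0.00362, limma-voom).

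The KO lines were compared with each other in the same genes. Of the 47 genes and the 10 activators, 0 separated KO-1 from KO-2 at day 0 (0.0290% of all genes), at day 2 (0.0435%) or at day 4 (0.251%), by limma on VST values in a fit of 9 groups. At an unadjusted p under 0.05, 4, 1 and 4 of the 47 differed on the successive days, beside 14.8%, 12.3% and 25.3% of all genes, and limma-voom called 0 on each of them. Among repressors 1, Atrx, was called at day 4. At an unadjusted p under 0.05 on VST values, 1, 0 and 2 of the 10 activators were lower and 1, 1 and 2 higher in KO-1 than in KO-2. Of the 39 repressors, 1, 4 and 5 were lower and 5, 2 and 15 higher in KO-1 on the successive days. Over all 20703 genes, 1456, 1390 and 2412 were lower and 1601, 1149 and 2822 higher. The absence of calls does not show that the lines were equal, since each had 2 libraries a day.

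To see which genes ran parallel to the set, r was taken over the 18 libraries between each of 16121 genes with a mean normalized count of at least 5 and the mean profile of the 7 genes. The libraries share genotype and day, so r is a description. The 8 most alike were Osgep (r = 0.97), Eif4a3l1 (0.96), Gm21761 (0.96), Usp17le (0.96), Pmpcb (0.96), Sephs2 (0.96), Ndufaf7 (0.95) and Cct4 (0.95). Eif4a3l1 and Usp17le are in the list of the programme. Eif4a3l1 was 5.60-fold lower in KO at day 2, and Gm21761, a predicted gene outside the list, 11.4-fold lower, whereas Osgep, a gene of tRNA modification, was 1.60-fold lower, so the likeness is one of shape and not of size. Among the 50 most alike, 7 were of the programme, of the 30 such genes that were abundant enough. Of the 7, Usp17le, Zscan4a, Zscan4e, Zscan4-ps2 and Zscan4-ps3 are of the same families as members of the set, so their likeness may come in part from shared reads. Over the 12 KO libraries alone 1 gene of the programme was among the 50. Among the 7 genes themselves, r ranged from 0.61 for Gm4340 with Usp17lc to 0.94 for Zscan4d with Zscan4f.

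The genes next to these loci were compared at day 2 by the gene order of RefSeq, taking the 3 measured genes on each side that were outside the lists of 2C-like genes. Of the 30 neighbours, 4 were called lower and 3 higher by limma-voom, shares near the 13.6% and 10.3% of all genes, and 2 (Cdkn2a and Elavl2) were called on VST values. None of the 6 beside the Zscan4 cluster was called, with Zik1 at 0.33 and Zfp606 at −0.54 on the log2 scale, while Zscan4d within it was at −2.82. Beside Zfp352, Cdkn2a, Cdkn2b and Elavl2 were called higher, and Dmrta1 and Gm12666 lower. The other neighbours called lower were AA623943 beside Tmem92, with a mean normalized count of 4.88 in WT and 0.00 in KO, and Lrriq1 beside Gm4340, at −2.30 on the log2 scale.

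**Figure D4:**
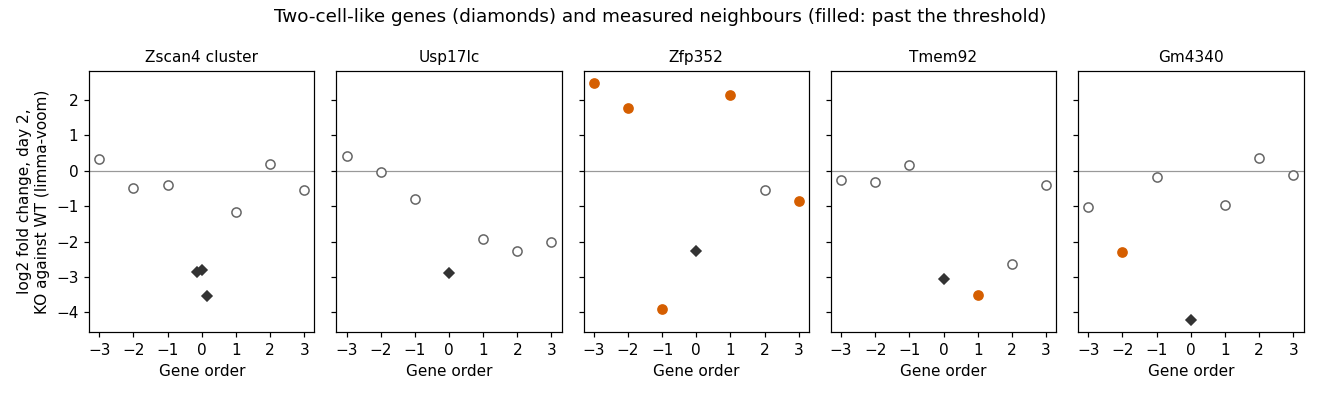
Log2 fold change of KO against WT at day 2 by limma-voom (y axis) of the 2C-like genes (diamonds, at position 0 of the gene order) and the 3 measured genes on each side by gene order (x axis, circles, filled where past the threshold). The 6 neighbours of the Zscan4 cluster are all open circles.

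The identity of the cells was read from marker lists. All 10 mESC markers were detected in every genotype; on VST values 0 were called at day 0, where 2 were lower and 4 higher at an unadjusted p under 0.05 and limma-voom called 0. In KO, 6 were called higher (4.01% of all genes) and 1 lower (2.37%) at day 2, and 8 higher (3.67%) and 1 lower (3.91%) at day 4. At day 2, Zfp42, Esrrb and Klf4 had fallen to 7.96%, 3.73% and 1.36% of their day 0 level in WT, where Zscan4c was at 104%. In KO they were at 32.2%, 20.0% and 9.66%, where Zscan4c, at 36.1%, had fallen about as far as Zfp42. Nanog, Sox2, Tfcp2l1 and Tdgf1 were between 2.51% and 22.9% in WT at day 2. Other pluripotency markers held up better in WT: Utf1 was at 109.7%, Pou5f1 (Oct4) at 96.9% and Dppa5a at 63.4%, and in KO they were at 87.2%, 77.0% and 79.0%.

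Feeder RNA could be present at day 0 if MEFs were in the culture. The summed normalized count of 9 MEF markers was 3156 and 3063 in WT at day 0 and 4617, 4469, 5182 and 5263 in KO. Of the 9, Col1a1, the most abundant, Col1a2 and Col3a1 were called higher in KO at day 0 on VST values (1.73% of all genes), Pdgfrb was called lower (0.879%), and Lum was at 0 in all 6 libraries; S100a4 was not found in the table. The part of these markers in the day 0 differences was not tested. At day 2, after MEFs were taken away, their sum was 1178 and 1019 in WT and 603, 567, 695 and 728 in KO. At day 4 it was 2785 and 2657 in WT and 565, 632, 1264 and 1200 in KO. Whether MEFs were carried over past day 0 was not tested.

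Lineage markers moved as well. Of 7 trophectoderm markers, 2 (Krt8 and Krt18) were called lower in KO at day 2 (2.37% of all genes) and 5 at day 4 (3.91%), Cdx2, Hand1 and Tead4 with them. The summed normalized count of 7 primitive endoderm markers was 344 and 329 in WT at day 0 and 148, 144, 159 and 156 in KO, a ratio of 2.22. At day 0 limma-voom called 3 of them, Gata4, Gata6 and Sox7, lower (6.86% of all genes), and on VST values 0 were called, with 4 lower at an unadjusted p under 0.05. On VST values Dab2 was called lower at day 2 and Gata4, Gata6 and Pdgfra at day 4, beside the same shares. Foxa2 differed the other way, by 0.26 at day 2 and 0.28 at day 4 on the VST scale, under the limit on size. Their part in the differences of the 2C-like genes was not tested.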

How the data were processed

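RNA-seq reads of 18 libraries were trimmed by the authors with Trim Galore 0.6.7, aligned to mm39 with STAR 2.7.11a and counted on exons with featureCounts 2.0.6, primary nonduplicated reads only. The values deposited by the authors are variance stabilized counts (VST, log2 scale) made with DESeq2 1.42.0, after genes with a mean count under 1 were removed. The members and gene lists were chosen with earlier results of these data known. Whole counts were recovered by inverting the transformation (100% of values within 1% of a whole number), which also gave the size factors. Library totals were 9309874 to 23921193, with a median of 15721347. Genes were named by this rule: Nsd1 and the members, up to 8 genes of each list called on VST values (by the largest absolute change), the most abundant marker and those at 0, and the 8 most parallel genes. Other genes named were chosen after their values were seen.

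limma 3.58.1 in R 4.3.3 was fitted to VST values with a trended prior and 6 groups of genotype and day, in place of the count test of the study because VST values were deposited, and limma-voom to the recovered counts with the size factors. Adjustment was Benjamini-Hochberg over all 20703 genes, and both fits were tested on simulated data. A permutation test of 4 against 2 libraries cannot go below p = 0.0667, so none was used. The labels call the replicates biological and do not say whether they were separate cultures, so p-values measure only the spread between these samples. Promoters came from RefSeq (GRCm38.p6) and transcripts from GENCODE M21, another build than that of the files. Figures used matplotlib 3.10.9 in Python 3.11.15. Alternatives are described in the closing section, and those for the limma-voom calls (leaving out a library, the replicate block, library totals), for the day 4 interaction and for KO-1 against KO-2 were added after seeing the data.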

Additional observations from a re-analysis of the deposited data

Results flagged for a closer look

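The KO effect on several regulators differed between days by the interaction test on VST values (limma, adjusted p under 0.01 and a difference over 0.58). From day 0 to day 2 the log2 effect rose by 1.18 for Nr5a2, 1.09 for Tbx3, 0.70 for Dppa4, 1.40 for Zfp42, 0.65 for Uhrf1, 0.68 for Rcor2 and 0.62 for Usp26, and for Myc the difference was −0.88. From day 0 to day 4 it rose by 1.07 for Nr5a2, 1.32 for Dppa4, 1.37 for Dppa2, 1.28 for Zfp42, 0.61 for Usp7 and 0.75 for Rcor2, and for Myc the difference was −1.26.

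A single KO library stood apart from the other 3 in 3 of 24 groups of 4 KO libraries examined, and chance alone places about 1 in 20 groups of continuous values there, a rate that does not carry over to tied counts as low as those of Zfp352. Usp17lc at day 0 had a normalized count of 0.00 in KO-1 replicate 1 against 8.87 to 9.82 in the others. Zfp352, with no more than 2 counts in any of these libraries and so under the floor of 3, had 0.00 in KO-2 replicate 1 at day 2, and 1.40 in KO-2 replicate 1 at day 4 where the others were at 0.00.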

How the results depend on the processing

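At low counts the VST scale and the limma-voom scale gave different counts of calls, and the depth of 9309874 to 23921193 counts limits Zfp352 and all 7 genes at day 4. Of the 47 other genes of the programme, 0 were called lower at day 0 on VST values, but 9 by limma-voom, 9 by limma-voom with library totals and 18 at an adjusted p under 0.05 with no limit on size. At day 2, 1 was called lower, against 28, 28 and 30 under the same alternatives and 2 with KO-1 alone, and 3 were called higher, against 7, 7 and 7. At day 4, 0 were called lower, against 2, 2 and 2, and 1 with KO-1 alone, and 3 were called higher, against 6, 6 and 6. Of the activators, 0 were called at day 0, against 2, 2 and 5, and 1 with KO-1 alone, 3 at day 2, against 5, 5 and 6, and 1 after quantile normalization, and 3 at day 4, against 4 by limma-voom and 6 with no limit on size. Of the repressors, 0 were called at day 0, against 2, 2 and 11, and 1 with KO-1 alone, 2 at day 2, against 4, 4 and 27, and 6 at day 4, against 8 by limma-voom and 20 with no limit on size. By limma-voom, added after seeing the data, the day 4 against day 0 interaction gave 4 of the 47 genes in place of 0 and 7 repressors in place of 4, and KO-1 against KO-2 at day 4 gave 2 repressors in place of 1.

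The median log2 fold change of the 7 genes at day 0 was −0.27 on VST values, −1.32 by limma-voom, −1.32 with library totals, −0.24 after quantile normalization and −0.21 with KO-2 alone. At day 2 it was −0.46, and −2.89, −2.89, −0.41, −0.51 with KO-1 alone, −0.42 with KO-2 alone and −0.58 over the 4 genes with a mean count of at least 10. At day 4 it was −0.04, −0.73 by limma-voom and −0.71 with library totals. Against day 0, the median moved in WT by 0.03 at day 2 (0.27 by limma-voom) and −0.39 at day 4 (−3.61), and in KO by −0.12 (−1.27) and −0.19 (−2.79). Among the 50 genes most parallel to the set, 7 were of the programme, 11 with a pseudocount of 5 and 1 over the 12 KO libraries alone. Reads may be shared between some of these genes and the set. Of 558 values of single genes of the set under the alternatives, 507 moved by less than the SD of replicates and 4 changed sign, all at day 4. Many of these alternatives cannot move the value, such as leaving out a library of another day or averaging the KO lines. The count of 507 is therefore largely set by the design and is no measure of stability.

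Leaving out each library in turn, the VST calls of the 47 genes ranged from 0 to 0 lower and 4 to 4 higher at day 0, 1 to 4 and 3 to 3 at day 2, and 0 to 1 and 3 to 3 at day 4. Those of the activators ranged from 0 to 1, 2 to 3 and 3 to 3 at the 3 days, and those of the repressors from 0 to 0, 2 to 3 and 4 to 8. By limma-voom the 47 genes ranged from 1 to 10 lower and 4 to 5 higher at day 0, 23 to 29 and 5 to 7 at day 2, and 2 to 3 and 4 to 6 at day 4. The day 4 interaction ranged from 0 to 1 of the 47 genes, 3 to 3 activators and 3 to 4 repressors. The median log2 fold change of the 7 genes ranged from −0.28 to −0.21, −0.49 to −0.42 and −0.06 to −0.03, and against day 0 from 0.032 to 0.076 and −0.47 to −0.32 in WT and −0.14 to −0.10 and −0.21 to −0.16 in KO. The KO to WT ratio of their sum ranged from 0.360 to 0.403, 0.114 to 0.128 and 0.663 to 0.824.

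The labels do not say that replicate numbers pair the libraries, and the deviations of same-numbered libraries did not run together on every day. WT and KO-1 correlated at −0.23, 0.48 and 0.35 at day 0, 2 and 4, WT and KO-2 at −0.00, 0.37 and −0.26, and KO-1 and KO-2 at 0.00, 0.43 and −0.50. The 3 pairs of day 2 were all positive. Groups of different days correlated as strongly and with either sign, KO-1 of day 0 at 0.64 with KO-1 of day 4 and at −0.61 with KO-1 of day 2. Whether libraries of day 2 were paired thus cannot be told from these values. With the replicate number as a block the VST calls of the 47 genes were 0, 1 and 0 lower and 4, 3 and 3 higher, and those by limma-voom 7, 28 and 2 lower and 5, 7 and 5 higher.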
